A study of Homo sapiens with 2 samples.

Results

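The miRNAs described here are 9 mature arms cut from hairpins of 1 cluster on human chromosome X, within the gene CLCN5. The listed names, hsa-miR-532-5p, hsa-miR-532-3p, hsa-miR-188-5p, hsa-miR-500a-3p, hsa-miR-362-5p, hsa-miR-362-3p, hsa-miR-501-3p, hsa-miR-660-5p and hsa-miR-502-3p (written below without the species prefix), were matched to the annotation of every non-control spot, and all 9 of them were present among the 2549 human miRNAs on the array. HepG2, a line derived from a human hepatocellular carcinoma, was given either the adenoviral control vector (Ad-NC) or the adenoviral vector for uc.372, a transcript of an ultraconserved region (Ad-uc.372), and RNA was taken after 48 h in both conditions. The sample labels do not say whether the vector overexpresses or inhibits the transcript, and overexpression was taken from the title of the series and the text of the study, although the axes of a plot in the study's supplement carry the inhibitor suffix. Total RNA labelled with Cy3 was read on Agilent's human miRNA array with 1 array per condition, so there was no replicate and no test across samples was made, and precision is limited by this number. The level of uc.372 itself was not analysed here.

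An intronic miRNA is transcribed together with its host gene, cut out of the primary transcript as a hairpin by Drosha and cut again by Dicer, and usually 1 of the 2 arms accumulates while the other is degraded. The host, CLCN5, encodes an endosomal chloride and proton exchanger that is mutated in Dent disease, an inherited disorder of the kidney tubule. A mature miRNA finds its target mRNAs mainly through its seed, the bases 2 to 8 from the 5′ end. Members of this cluster have been studied in liver and other tumours, miR-362-5p as a repressor of the deubiquitinase CYLD and miR-500a-3p as a repressor of SOCS family inhibitors of cytokine signalling. miR-188-5p is known from bone marrow, where it favours fat over bone formation by stromal cells.

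RefSeq's annotation of GRCh38.p14 placed 8 hairpin genes, MIR532, MIR188, MIR500A, MIR362, MIR501, MIR500B, MIR660 and MIR502, side by side with no other gene between them, and all 8 lay within the bounds of CLCN5. From the start of MIR532 to the end of MIR502 the stretch covered 11536 bases on the plus strand. MIR532 and MIR188 lay 264 bases apart, 4842 bases before MIR500A. The mature sequences of 8 of the 9 members were found in RefSeq's table, and miR-660-5p is named only. They are shown 5′ to 3′ because their likeness decides how far the probes for them can be read as separate measurements, with the seed in capitals:
miR-532-5p: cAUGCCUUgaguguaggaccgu
miR-532-3p: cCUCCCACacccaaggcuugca
miR-188-5p: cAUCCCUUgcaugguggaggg
miR-500a-3p: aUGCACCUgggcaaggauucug
miR-362-5p: aAUCCUUGgaaccuaggugugagu
miR-362-3p: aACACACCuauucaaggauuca
miR-501-3p: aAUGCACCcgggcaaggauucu
miR-502-3p: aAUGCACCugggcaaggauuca
In GRCh38.p14, miR-532-5p lies at chrX:50003167-50003188, miR-532-3p at chrX:50003204-50003225, miR-188-5p at chrX:50003517-50003537 and miR-500a-3p at chrX:50008482-50008503. miR-362-5p lies at chrX:50008968-50008991, miR-362-3p at chrX:50009005-50009026, miR-501-3p at chrX:50009772-50009793 and miR-502-3p at chrX:50014649-50014670, all on the plus strand.

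miR-501-3p and miR-502-3p had the same seed, AUGCACC, and no other miRNA on the array with a sequence in the table had it. The seed of miR-500a-3p, UGCACCU, is that of miR-502-3p moved by 1 base. Without gaps, miR-500a-3p matched miR-502-3p at 20 of 21 aligned bases, with an unbroken run of 20, and it matched miR-501-3p at 20 of 21. The seed of miR-362-5p was shared with miR-500b-5p of the same cluster and with no miRNA outside it. The seed of miR-188-5p was shared outside the cluster with miR-6866-3p and that of miR-362-3p with miR-329-3p, and neither of these was well above background on either array. The letters CAAGGAUU, read along the mature RNA, were found in 5 of the 15 arms of the cluster with a sequence and in 0.222% of the 2248 array miRNAs that matched the table, which is the same 5. Their reverse complement AAUCCUUG was found in 3 arms, again the only 3 of the 2248. The probes' own sequences were not used here, and how much miR-500a-3p, miR-501-3p and miR-502-3p share signal was not tested.

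The 2 arrays shared a slide and a scan, and the 9 members had 20 probes and 180 spots on each. The scanner software marked 3 of these spots as outliers for Ad-NC and 4 for Ad-uc.372, and they were left out. The signal used is the background-subtracted brightness of a spot, which was not normalized between the arrays by the authors. The scanner software flags a spot that stands well above its background, and the dimmest flagged spot of each array, called the limit below, was at 21.1 for Ad-NC and at 17.3 for Ad-uc.372. Where at least 50% of a probe's spots carried the flag, the probe counted as well above background, and so did its miRNA. For scaling, each array's log2 signals were set relative to the 75th percentile of the probes that passed on both arrays, which lay at 304.6 for Ad-NC and 356.5 for Ad-uc.372 in signal. Of the 4 hepatocyte markers, miR-192-5p, miR-194-5p and miR-148a-3p were measured on both arrays, whereas miR-122-5p, the most hepatocyte-specific of them, was not well above background on either. The 6 markers of blood, endothelial and smooth muscle or fibroblast cells were all not well above background on both arrays.

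On both arrays, 4 of the 9 members were well above background, against 8.98% of all miRNAs. These were miR-532-5p, miR-532-3p, miR-362-5p and miR-660-5p. miR-362-3p passed with Ad-uc.372 only, as did 1.22% of all miRNAs, and miR-188-5p, miR-500a-3p, miR-501-3p and miR-502-3p passed on neither array. Over all miRNAs, 31 passed with Ad-uc.372 only and 7 with Ad-NC only. The 7 arms of the same hairpins outside the list, miR-188-3p, miR-500a-5p, miR-501-5p, miR-500b-5p, miR-500b-3p, miR-660-3p and miR-502-5p, all lay under the limit on both arrays. Of the spots of their 19 probes that were not outliers, none was flagged. A single flagged spot of miR-502-5p with Ad-uc.372, at a signal of 45.2, was left out as an outlier, and the highest mean signal of such a probe was 7.12 with Ad-NC and 6.23 with Ad-uc.372. Only the hairpin MIR532 thus had both arms measured on both arrays.

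**Figure D1:**
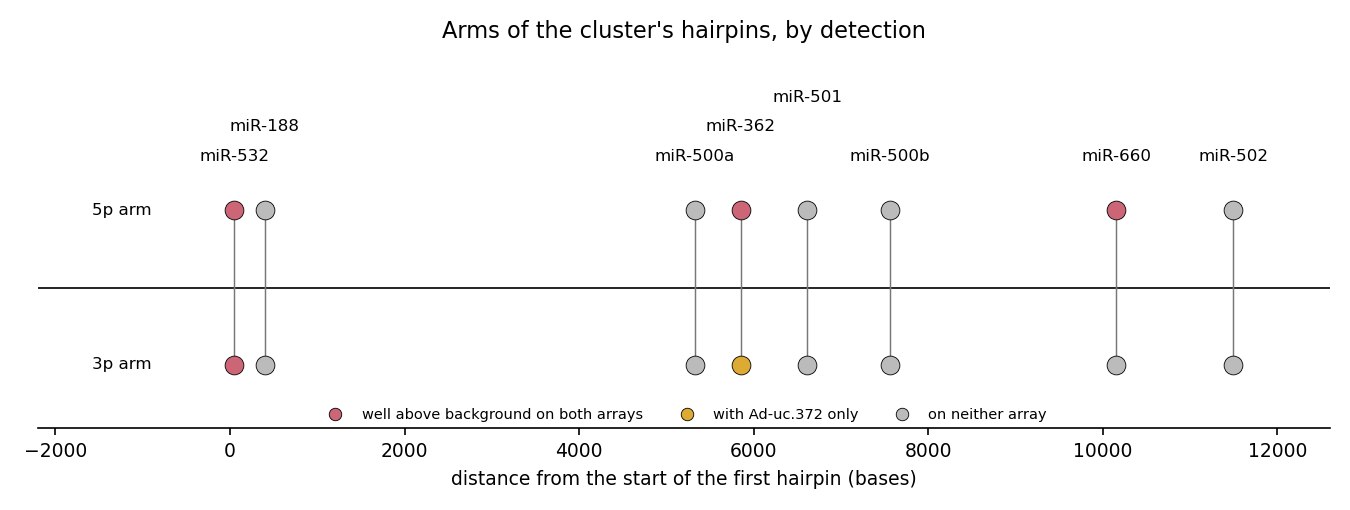
The arms of the 8 hairpins are placed by distance in bases from the start of MIR532, with the 5p arm above and the 3p arm below the line and both arms of a hairpin drawn at 1 position. Colour gives detection: miR-532-5p, miR-532-3p, miR-362-5p and miR-660-5p were well above background on both arrays, miR-362-3p with Ad-uc.372 only, and the other arms on neither.

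The hairpin MIR532, at chrX:50003148-50003238 on the plus strand, is shown with its 2 mature arms in capitals, since these were the only arms of a pair measured together:
MIR532: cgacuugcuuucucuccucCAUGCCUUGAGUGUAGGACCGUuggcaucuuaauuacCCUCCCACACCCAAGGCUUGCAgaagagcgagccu
The brighter probe for miR-532-5p, an arm reported to repress the transcription factor RUNX3 in gastric cancer, had 10 spots between 66.4 and 93.95 with a median of 83.3 with Ad-NC, and 10 spots between 71.3 and 103.2 with a median of 81.95 with Ad-uc.372. The means were 83.45 ± 9.12 (SD over spots) and 83.0 ± 9.97 before scaling. Before scaling the ranges overlapped almost entirely, and 9 of the 10 spots with Ad-uc.372 lay inside the range with Ad-NC, against 6 after scaling. The other probe of miR-532-5p had 46.0 ± 7.01 with Ad-NC and 42.7 ± 7.38 with Ad-uc.372, over 10 spots each. After scaling, miR-532-5p had a log2 difference of -0.29, Ad-uc.372 minus Ad-NC, with a combined spot SD of 0.29, and its 2 probes gave -0.24 and -0.34.

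For miR-532-3p, the opposite arm, reported to act on apoptosis in heart muscle cells, the brighter probe had 10 spots from 28.55 to 37.1 with a median of 32.5 with Ad-NC. With Ad-uc.372 its 10 spots ran from 26.7 to 41.0, with a median of 31.7. The spots with Ad-NC thus lay within the range of those with Ad-uc.372, and the means, 32.3 ± 3.12 and 32.2 ± 5.10, were nearly the same before scaling. The log2 difference after scaling was -0.24 with a combined spot SD of 0.26. It rests on 1 of 2 probes, and the other had mean signals of 12.0 and 9.98, under the limit on both arrays. The 2 arms of MIR532 therefore differed between the conditions by nearly the same amount. The gap between their differences was well within the spot SD of either, which describes single spots and not their means.

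The hairpin MIR362, at chrX:50008964-50009028 on the plus strand, gave 1 arm measured on both arrays and 1 seen with Ad-uc.372 only, and is shown with its arms in capitals:
MIR362: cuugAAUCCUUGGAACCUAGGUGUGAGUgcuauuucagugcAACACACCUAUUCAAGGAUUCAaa
The brighter probe for miR-362-5p had 9 spots between 57.8 and 79.7 with a median of 66.0 with Ad-NC, and 10 spots between 51.3 and 71.7 with a median of 61.1 with Ad-uc.372. The means were 67.4 ± 6.73 and 61.7 ± 7.75, and 6 of the 10 spots with Ad-uc.372 lay inside the range with Ad-NC before scaling and 3 after it. The other probe, closer to the limit, had 25.6 ± 2.92 and 23.2 ± 4.06. The log2 difference of miR-362-5p after scaling was -0.37 with a combined spot SD of 0.27, the lowest of the 4 measured members, and its 2 probes gave -0.36 and -0.38.

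miR-362-3p, reported to slow the cell cycle in colon cancer cells, was read by a probe whose signals lay around the limit. Its 10 spots with Ad-NC ran from 10.3 to 24.8 with a median of 14.5, and 2 of them were flagged. With Ad-uc.372, 9 spots ran from 17.2 to 29.9 with a median of 22.45, and 8 of them were flagged. The spots with Ad-uc.372 were the brighter ones before scaling, but 6 of the 9 lay inside the range with Ad-NC, and 8 after scaling. The means were 16.1 ± 5.60 and 23.2 ± 3.65 before scaling, and the second probe had -0.16 and 2.55. No fold can be given after scaling, because the level with Ad-uc.372 was not above the lowest level measured with Ad-NC. Where any flagged spot sufficed, miR-362-3p was measured on both arrays, with a log2 difference of 0.04. That value rests on Ad-NC spots raised to the limit, all but the 2 flagged ones. The log2 ratio of the mean signals, not so raised, was 0.53 before scaling.

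miR-660-5p, reported to repress MDM2 in lung cancer cells, was read by 1 of its 2 probes. Its 10 spots ran from 50.1 to 87.6 with a median of 68.9 with Ad-NC and from 42.6 to 84.9 with a median of 64.8 with Ad-uc.372. The means were 70.3 ± 12.8 and 65.5 ± 12.3, and 9 of the 10 spots with Ad-uc.372 lay inside the range with Ad-NC before scaling and 7 after it. Its log2 difference after scaling was -0.33 with a combined spot SD of 0.39, the widest of the 4. The second probe was under the limit on both arrays, with 5.81 ± 1.58 and 9.90 ± 4.32.

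**Figure D2:**
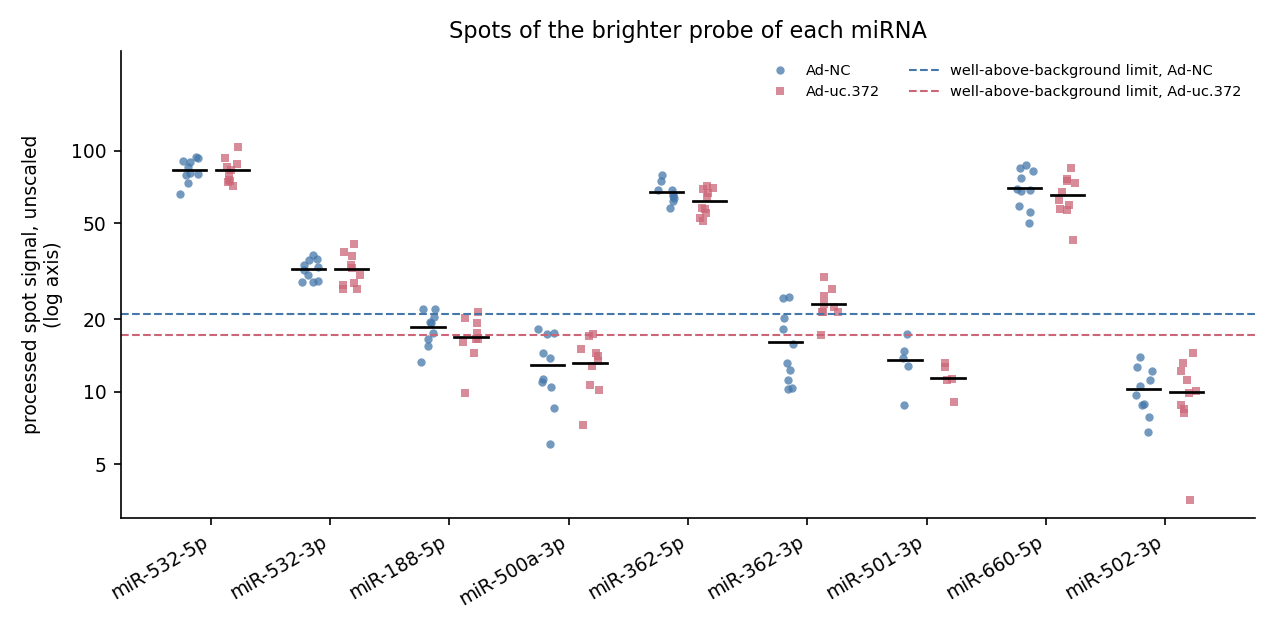
Each point is 1 spot of the brighter probe of a member, as processed signal before scaling on a log axis, for Ad-NC (circles) and Ad-uc.372 (squares), with black bars for the means and dashed lines for the limits of 21.1 and 17.3. The spots of both arrays overlap for every member, and miR-188-5p, miR-500a-3p, miR-501-3p and miR-502-3p lie around or under the limits.

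miR-188-5p came nearest to the limit among the members seen on neither array. Its brighter probe had 18.5 ± 2.99 over 9 spots with Ad-NC, 2 of them flagged, and 16.9 ± 3.42 over 9 spots with Ad-uc.372, 4 of them flagged. The other probe had 12.8 ± 4.21 and 13.3 ± 3.82. Neither probe thus separated the conditions.

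The 3 members of near-identical 3p sequence were all dim. The brighter probe of miR-500a-3p had 12.9 ± 4.095 with Ad-NC and 13.2 ± 3.14 with Ad-uc.372, with 0 and 1 of 10 spots flagged. The brightest of the 4 probes of miR-501-3p had 13.5 ± 3.14 and 11.47 ± 1.58 over 5 spots each, none flagged. For miR-502-3p the brighter probe had 10.3 ± 2.25 and 10.02 ± 3.08 over 10 spots each, none flagged. For miR-500a-3p and miR-502-3p the mean signals of the conditions differed by less than the spot SD of either array. For miR-501-3p they differed by less than the spot SD with Ad-NC only. All these mean signals lay under the limit of their array, and no fold is given for them.

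The 4 measured members differed alike. All 4 had log2 differences below 0, as did 73.8% of the 229 miRNAs measured on both arrays, whereas all 4 lay above 0 when every probe entered the 75th percentile. Their differences ran from -0.37 to -0.24, a span of 0.13, which is smaller than the combined spot SD of each, from 0.26 to 0.39. This SD is the spread of single spots, which is wider than the error of their means. In the order miR-362-5p, miR-660-5p, miR-532-5p and miR-532-3p, no neighbours differed beyond their spot SD. The median over the 4 was -0.31, against -0.17 over the 229. Relative to that median of all miRNAs, which any constant scaling moves with them, miR-362-5p lay at -0.20, miR-660-5p at -0.16, miR-532-5p at -0.12 and miR-532-3p at -0.07. Counted from the lowest difference, they held the 48th, 61st, 72nd and 95th places of 229. All 4 lay between the 10th and 90th percentiles of the 229, at -0.43 and 0.19. The 2 arms of MIR362 could not be compared in this way, since miR-362-3p passed with Ad-uc.372 only. Before scaling, the log2 ratio of mean signals was 0.53 for miR-362-3p, against -0.13 and -0.14 for the probes of miR-362-5p. The signals of miR-362-3p lay around the limit, at 16.1 ± 5.60 with Ad-NC and 23.2 ± 3.65 with Ad-uc.372. Whether the 2 arms differ was not tested. Without scaling the differences of the 4 measured members ran from -0.14 to -0.01, and whether they differ between the conditions at all was not tested. RNA from a whole culture was measured, so a difference in cells holding these miRNAs and one in their amount per cell cannot be told apart.

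At 1.5-fold, the size of difference that the study's methods use, 0 of the 4 measured members were called, against 3.93% of the 229 miRNAs. The largest difference was the 1.29-fold lower signal of miR-362-5p. Of the 6 member probes well above background on both arrays, 0 had spots that did not overlap between the conditions, either before or after scaling. Over all 393 such probes, 10.7% did not overlap before scaling and 21.6% after it. Before scaling, the log2 ratios of the mean signals of these 6 probes lay between -0.14 and 0, and 41 of their 60 spots with Ad-uc.372 lay inside the range of the same probe with Ad-NC. After scaling, 28 of the 60 lay inside it.

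**Figure D3:**
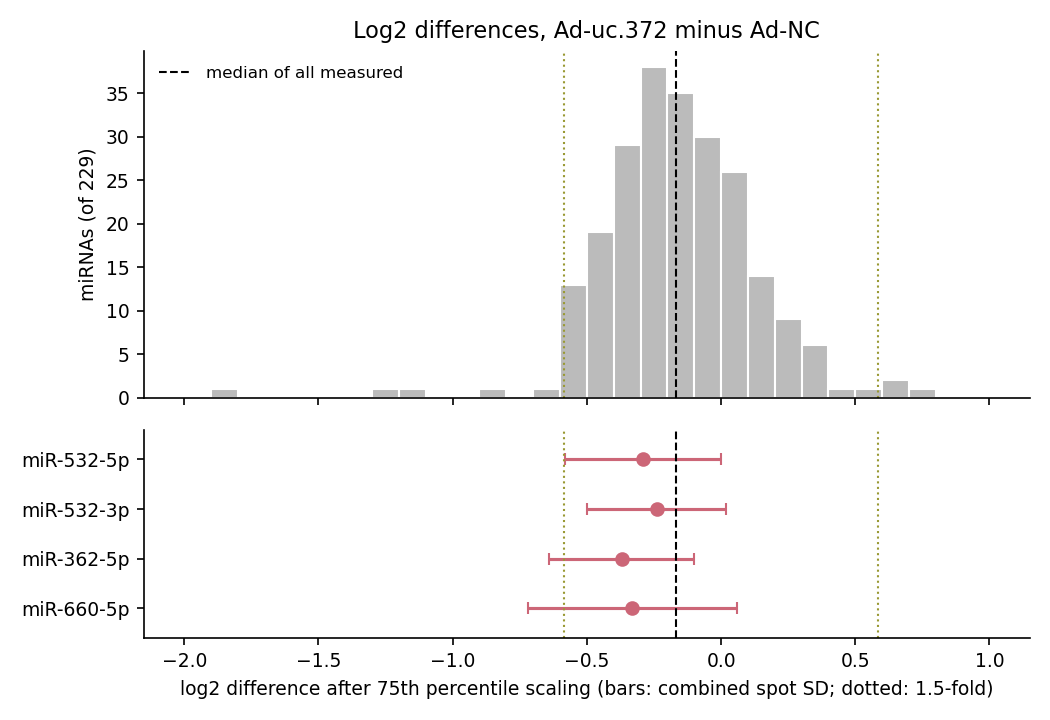
The upper panel counts the 229 miRNAs measured on both arrays by log2 difference, Ad-uc.372 minus Ad-NC, after scaling, and the lower panel gives the 4 measured members with the combined spot SD as bars. The members lie from -0.37 to -0.24, to the left of the dashed median of -0.17 and inside the dotted 1.5-fold lines; with the 75th percentile over all probes all 4 would lie above 0.

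The miR-106b-25 cluster, cut from an intron of the replication gene MCM7, is given for comparison. Of its 6 arms, 3 were measured on both arrays, with log2 differences of -0.43 for miR-106b-5p, -0.15 for miR-93-5p and 0.13 for miR-25-3p. Their span was 0.56, against 0.13 for the 4 members in CLCN5. The 3 arms were brighter, with scaled log2 signals of 2.53, 0.34 and -0.39 with Ad-NC, against -3.25 to -2.14 for the 4 members. The combined spot SD of these 3 ran from 0.16 to 0.42, and whether the spans of the 2 clusters differ was not tested.

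The order of the 4 measured members against all miRNAs held in most settings, several of which could not change it. The median of the 4 lay below the median of all measured miRNAs in the reported setting and in each alternative except that without a filter on dim probes. There it was -0.37 against -0.52, over the 4 and over all 2549 miRNAs. In that setting most miRNAs stand at the limit of each array, so the value over all is the difference between the limits after scaling. Without any scaling the median of the 4 was -0.08 against 0.06 over all, and with the 75th percentile over all probes it was 0.17 against 0.32. Both of these settings shift every difference by the same amount. So do scaling to the median of probes and setting values against the median of all miRNAs, while the 2-fold threshold shifts none. The order was thus fixed in advance in these settings.

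**Figure D4:**
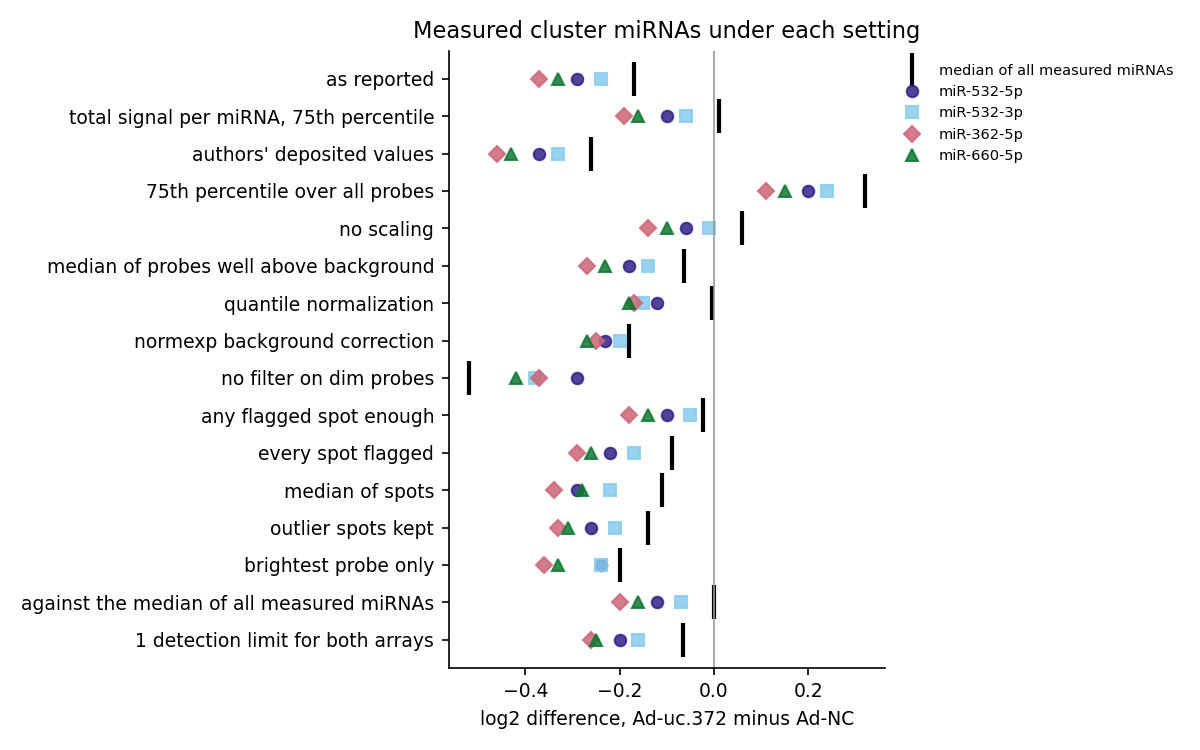
Log2 differences, Ad-uc.372 minus Ad-NC, are shown for the 4 measured members (symbols) and for the median of all measured miRNAs (black bars) under the reported setting and each alternative but the 2-fold threshold. The symbols move with the bar and stay to its left in each row except the one without a filter on dim probes, and they lie above 0 only with the 75th percentile over all probes. Settings that differ only by a constant move the symbols and the bar alike and cannot change their order.

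The software also gives a total signal for each miRNA, from which the authors' deposited log2 values were made, and here the dim members behaved otherwise. By its own detection flag, 7 of the 9 members were detected on both arrays, against 10.9% of all miRNAs, miR-500a-3p with Ad-uc.372 only, and miR-502-3p on neither. The total of miR-188-5p was 2.62 with Ad-NC and 4.27 with Ad-uc.372, which is 1.63-fold higher before scaling, and that of miR-501-3p was 0.957 and 1.60, or 1.67-fold higher. These totals were made of different numbers of probes. That of miR-188-5p equalled, within 0.1%, the total of 1 of its probes with Ad-NC and the sum of 2 with Ad-uc.372, while the probes themselves went from 2.62 to 2.39 and from 1.81 to 1.88. That of miR-501-3p likewise came from 1 of 4 probes with Ad-NC and from 2 with Ad-uc.372, while those probes went from 0.957 to 0.8105 and from 0.8545 to 0.7925. miR-500a-3p was undetected by its total with Ad-NC and had 1.87 with Ad-uc.372, while the probe behind that total had 1.82 and 1.87, so no fold is given for it. After scaling, miR-188-5p and miR-501-3p were 2 of the 7 members, and 7.89% of the 279 miRNAs, at least 1.5-fold higher in total signal. For the other 5 members detected on both arrays the same number of probes was summed, and their log2 ratios before scaling were -0.04 for miR-532-5p, 0 for miR-532-3p, -0.13 for miR-362-5p, -0.10 for miR-660-5p and 0.53 for miR-362-3p.

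**Figure D5:**
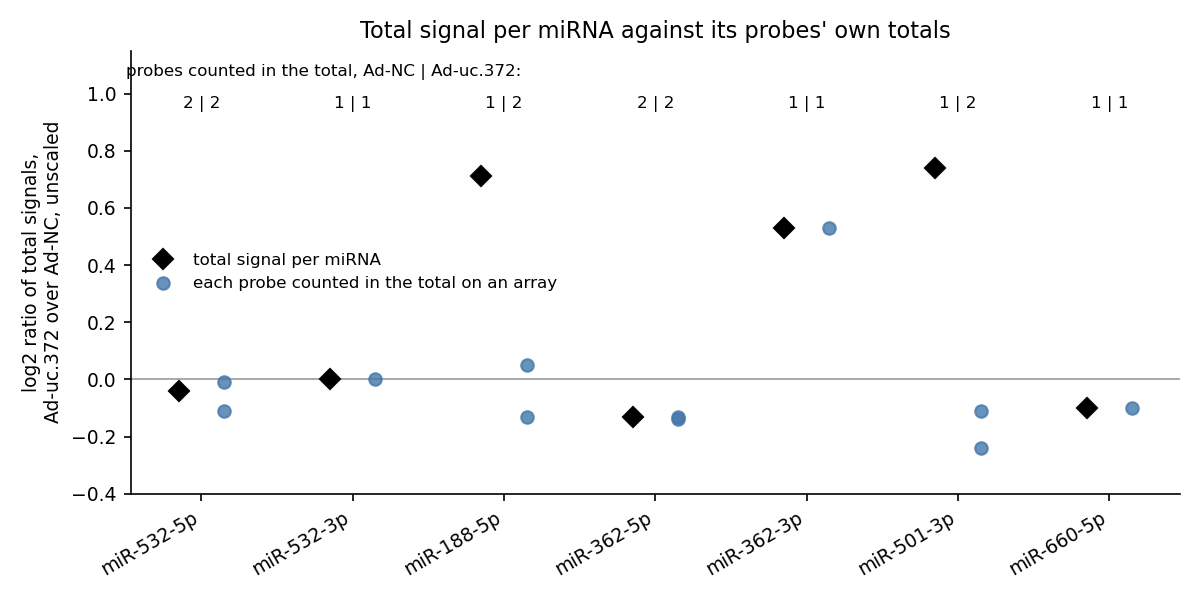
For the 7 members detected on both arrays by the software's flag, diamonds give the log2 ratio of the total signal per miRNA, Ad-uc.372 over Ad-NC, before scaling, and circles give the ratio of each probe counted in a total; the numbers above count those probes on each array. miR-188-5p, at 0.71, and miR-501-3p, at 0.74, stand apart from their own probes, at -0.13 and 0.05 and at -0.24 and -0.11, while the other 5 lie with theirs.

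In the deposited log2 values, the 4 measured members had differences of -0.37 for miR-532-5p, -0.33 for miR-532-3p, -0.46 for miR-362-5p and -0.43 for miR-660-5p. Those of miR-188-5p, miR-362-3p and miR-501-3p were 0.38, 0.20 and 0.35. No member measured on both arrays reached 1.5-fold in either direction in these values, against 11.5% of the 279 miRNAs detected on both arrays.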

How the data were processed

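Total RNA from HepG2 cells given Ad-NC or Ad-uc.372 was hybridised on 1 array per condition, with groups taken from the labels. The deposited intensity values per spot were background-subtracted by the authors in Agilent Feature Extraction, version 10.10 per the submitters' processing notes and 11.5.1.1 per the file headers, and were not normalized between arrays. The same files give total intensities per probe and per miRNA and detection flags, with the grid annotated to hg19. The deposited log2 values per miRNA were normalized by the authors with GeneSpring GX, of which the kind is not given in the sources used here.

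Control and outlier spots were left out, spots under the array's limit were raised to it, and a probe's value was the mean of its spots' log2 intensities. Arrays were scaled to the 75th percentile of the probes that passed on both, and the differences of a miRNA's passing probes were averaged. The combined spot SD is the square root of the summed spot variances of both arrays, and over several probes its root mean square. It is technical only, describes the spread of single spots and is wider than the error of a mean over spots. No p-value is given. The t-test of the study's methods cannot be made with 1 array per condition. The members, the cluster's other arms, the miR-106b-25 cluster and the cell markers were chosen with earlier results of these data known. All 9 members are named, whatever their values. Alternatives covered signal, scaling, background correction, filter, spots, probes and the fold threshold, and the steps were tested on simulated data. The simulation redrew the spots of the Ad-NC array and planted 2-fold changes. It held no variation between arrays and no differences as small as those of the members, so it does not bear on them. Sequences came from RefSeq on GRCh38.p14, which matched 2248 of 2549 miRNAs by name. Python 3.11.15, numpy 2.4.6, pandas 2.3.3, matplotlib 3.10.9, R 4.3.3 and limma 3.58.1 were used.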

Additional observations from a re-analysis of the deposited data

How the results depend on the processing

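No paired analysis was possible because a single array was hybridised for each condition (n = 1), and for the same reason no array could be left out. Background correction by normexp (offset 50) started from median spot signals. Of the member differences under the alternatives, 60 stayed within the combined spot SD of the reported value and 4 did not, all 4 with the 75th percentile over all probes, at 0.20 for miR-532-5p, 0.24 for miR-532-3p, 0.11 for miR-362-5p and 0.15 for miR-660-5p, where the median of the members was 0.17. This scaling raised every difference by 0.48, by its construction. The 60 include the values with a 2-fold threshold, which changes only the calls and cannot move a difference. The combined spot SD, from 0.26 to 0.39, was about as large as the reported differences, from -0.37 to -0.24. A difference close to 0, such as -0.01 for miR-532-3p without scaling, thus still counted among the 60. The median of all miRNAs moved by 0.23 without scaling, 0.18 with the total signal, 0.16 with quantile normalization, 0.14 where any flagged spot sufficed, 0.10 with the median of probes and -0.35 without a filter. The number of members measured on both arrays, 4, was 7 with the total signal per miRNA and with the authors' values, which use the software's own flag, 6 where any flagged spot sufficed, with miR-188-5p at -0.26 and miR-362-3p at 0.04, and 9 without a filter. Where any flagged spot sufficed, most Ad-NC spots of miR-188-5p and miR-362-3p had been raised to the limit, so their values are not measured levels. The count past 1.5-fold, 0, was 2 with the total signal, miR-188-5p at 0.65 and miR-501-3p at 0.68. With outlier spots kept, miR-188-5p also passed with Ad-uc.372 only. A single detection limit for both arrays, at 21.1, was chosen after seeing the data and left 4 members measured, with a median of -0.23. Signal over background leaves the 5 other members without a difference.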

Other observations

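The deposited log2 values equal the log2 of the total signal per miRNA minus a constant of 1.39 with Ad-NC and 1.71 with Ad-uc.372, and members of the cluster lie exactly at these constants. miR-188-5p has the deposited value 0 with Ad-NC and miR-362-3p has 0 with Ad-uc.372. The value of miR-501-3p with Ad-NC departs from this relation: the scanner file gives a total of 0.957, whereas the deposited value corresponds to a total of 1.

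The unequal number of probes behind the totals of miR-188-5p and miR-501-3p was seen in other miRNAs. Of 279 miRNAs detected on both arrays, 250 had the same number of probes in the total on each, 27 had more with Ad-uc.372 and 2 had more with Ad-NC. The totals differed by at least 1.5-fold before scaling in 16 of the 250, in 17 of the 27 and in both of the 2, with median log2 differences of 0.05, 0.74 and -1.59. These counts were made after the values were seen.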
